A study of Mus musculus with 15 samples.

Results

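The interferon-stimulated and nucleic acid sensing genes of the mouse kidney were described here in animals with and without telomerase, after folic acid injury or its vehicle. They are a chosen list of 44 genes induced by type I or type II interferon or able to sense foreign or misplaced RNA and DNA, and all 44 were found by symbol or synonym among the 19602 genes of the count table. The animals were Tert+/+ mice (wild type, WT) and generation 3 Tert-/- mice (G3), bred without the reverse transcriptase subunit of telomerase so that telomeres shorten over successive generations. Mice of both sexes, 6 to 8 weeks old, were injected once into the abdomen with folic acid, a cause of acute tubule injury at high dose, at 125 mg/kg, or with 200 ul of its vehicle, 0.3 M NaHCO3. Kidneys were perfused with cold PBS and taken at day 14, giving 4 libraries each of WT vehicle, G3 vehicle and G3 folic acid and 3 of WT folic acid. The Tert deletion is carried in every cell of the G3 mice, and the sources used here do not give the strain.

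In this pathway, double-stranded RNA in the cytosol is bound by RIG-I (Ddx58) and MDA5 (Ifih1), which signal through MAVS, while cytosolic DNA activates cGAS and then STING (Tmem173). Both routes switch on type I interferon, and secreted interferon acts through its receptors and JAK kinases on transcription factors, IRF9 among them, which bind a promoter element called the interferon-stimulated response element (ISRE). Interferon gamma acts mainly at a different element, the gamma-activated site (GAS). The induced genes include RNA-binding and membrane-acting antiviral proteins, and the guanylate-binding proteins (GBP) and immunity-related GTPases (IRG) that attack the vacuoles of intracellular microbes. In the kidney these genes are known from viral infection, lupus nephritis and injury with inflammation.

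Libraries made from transcript 3' ends held 5014684 to 6609307 reads assigned to genes (median 6091019). Values are normalised counts, in which 1 read is worth 0.895 to 1.13, and the library numbers only name samples in accession order. Tert RNA was 3.00 to 22.6 in WT vehicle and 2.93 to 15.1 in G3 vehicle, and as the sources used here do not say which part of the gene is deleted, this checks neither genotype nor label. Markers of proximal tubule, thick limb, collecting duct, podocytes and endothelium were present in every library. Xist and Y-linked RNA went against the labelled sex in 10 of the 15 libraries. Y-linked RNA was high in WT vehicle 1, 3 and 4 and in G3 folic acid 1 and 3, both kinds of RNA were present in WT vehicle 2 and G3 folic acid 4, and the other 8 libraries held Xist with almost no Y-linked RNA. The Y share, the summed Y-linked RNA relative to the highest library, therefore moves with the groups, and the 2 cannot be fully told apart. The sample titles carry numbers whose first digits, 25, 26 or 27, are called the title series here. All WT folic acid libraries are of series 26 and all G3 folic acid libraries of series 27. Between these groups genotype and title series therefore go together. WT folic acid 1 stands apart from WT folic acid 2 and 3 in several markers given below, and its share of reads on the gene Gm42418 was 23.0%, against 4.85 to 8.15% in the others.

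Most members were somewhat higher after folic acid in both genotypes, but few differences passed the test. Testing was done with limma on log2(normalised count + 1) over the 14651 genes that reached 10 normalised counts in 3 or more libraries, 38 of the members among them, and a gene was called at a Benjamini-Hochberg adjusted p under 0.05. In WT, 4 of 38 members rose and 0 fell, or 10.5%, against 5.06 percent of all tested genes called in either direction and 2.17 percent called higher. These were Gbp3, Gbp7, Mx2 and Ifit3b. The difference was above 0 for 35 of 38 members in WT, with a median of 0.42 on the log2 scale, while 51.3% of all genes were above 0 and their median was 0.01. Without WT folic acid 1 the median of the members was 0.25 and 0 members were called. Over all fits that left out 1 library, 99 to 1306 of all genes were called. Fitted with the Y share, the WT median was 0.16 and 0 members were called. In that fit 1 of the 14651 genes was called, so the count says nothing about the members in particular.

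In G3, 0 of 38 members were called after folic acid, where 0.273 percent of all genes were. At an unadjusted p under 0.05, 17 members were higher and 0 lower by limma, against 13.8% of all genes in either direction. The edgeR test called 0 members and DESeq2 called 1, Tmem173. For both tests the counts of all genes called in each comparison are given in the last section. The members' median difference was 0.43, against -0.01 over all genes, and 34 of 38 were above 0, against 48.4% of all genes. Without G3 folic acid 3 the median was 0.54 and 2 members, Irf1 and Isg15, were called. Over all fits that left out 1 library, 3 to 360 of all genes were called. The difference between the folic acid effects of G3 and WT had a median of 0.00 over the members, with 19 of 38 above 0, against 48.6% of all genes. That median was 0.32 when the Y share was in the fit, and the members' median for G3 against WT after vehicle went from 0.12 to -0.22. For that difference 1 member (Gbp3, lower) was called, against 3.82 percent of all genes and 1.67 percent lower. G3 was set against WT directly, with 1 member (Ifi27, higher) called after vehicle, where 2.9 percent of all genes were called and 0.867 percent called higher, and 0 called after folic acid, where 2.3 percent were. After folic acid 4 members were higher and 2 lower in G3 at an unadjusted p under 0.05 by limma, or 6 of 38, against 20.4% of all genes in either direction; edgeR called 0 and DESeq2 called 2, Gbp7 and Irf1. The WT vehicle libraries are shared between the first folic acid comparison and the vehicle comparison of genotypes, so these are not independent.

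**Figure D1:**
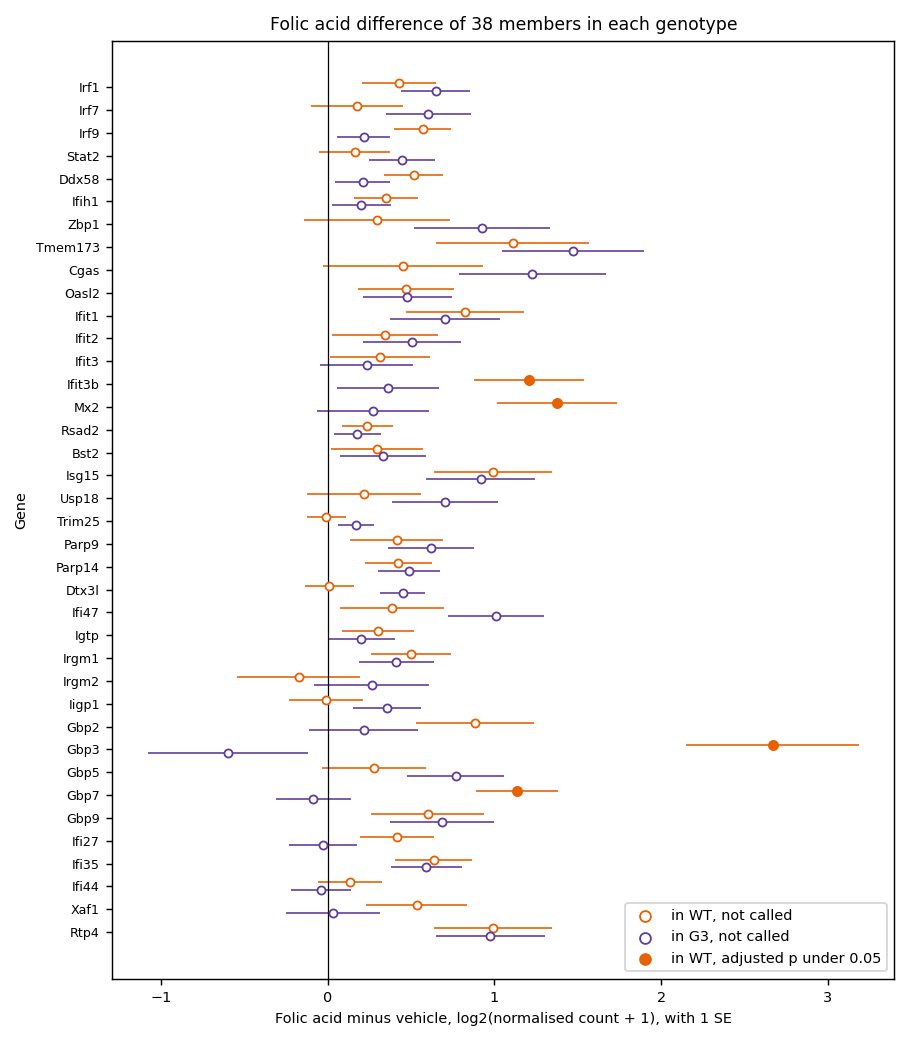
Difference between folic acid and vehicle for each of the 38 tested members, as log2(normalised count + 1) on the horizontal axis with 1 SE, in WT (orange) and G3 (purple). Filled points mark the 4 members called in WT; 35 of 38 points in WT and 34 of 38 in G3 lie above 0, and Gbp3 lies farthest out, at 2.67 in WT and -0.60 in G3.

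Whether the groups overlapped was counted as well. In WT, 11 of 38 members (28.9%) were higher in every folic acid library than in any vehicle library, against 9.31 percent of all genes. They were Irf9, Ddx58, Ifit3b, Mx2, Isg15, Irgm1, Gbp3, Gbp7, Gbp9, Ifi35 and Rtp4, and 12 members did so without WT folic acid 1, against 15.0 percent of all genes. In G3, 6 of 38 (15.8%) did so, against 3.98 percent of all genes: Zbp1, Tmem173, Cgas, Dtx3l, Gbp5 and Ifi35. Without G3 folic acid 3 the number in G3 was 15, against 8.1 percent of all genes. Ifi35, whose product binds other interferon-induced proteins, is on both lists. Between genotypes, Irf1 and Ifi27 were higher in every G3 library after vehicle (4.29 percent of all genes), and after folic acid Stat2 and Gbp9 were higher (7.84 percent) and Gbp3 and Gbp7 lower (9.44 percent) in every G3 library.

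**Figure D2:**
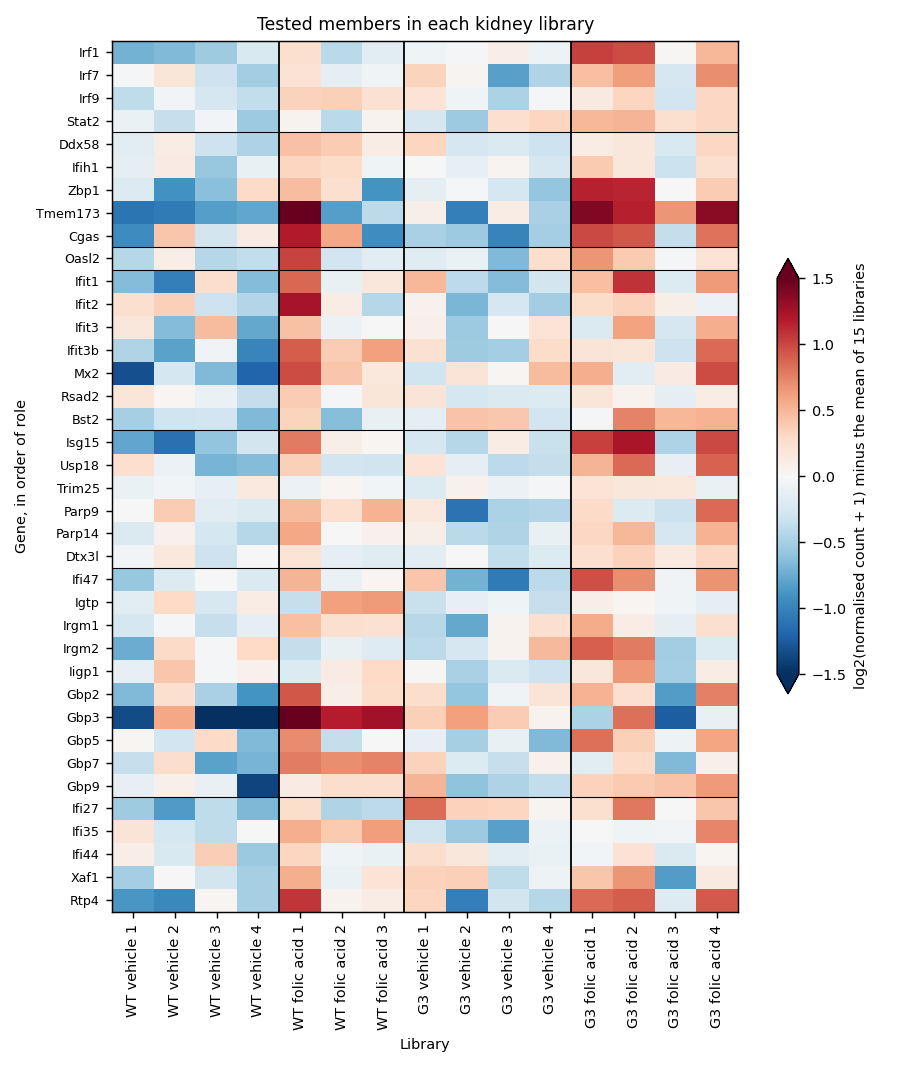
Level of each tested member (rows, grouped by role) in each library (columns), as log2(normalised count + 1) minus the mean of the 15 libraries; colours beyond 1.5 are cut off. Most rows are red in WT folic acid 1 and in G3 folic acid 1, 2 and 4, while Gbp3 is red in all 3 WT folic acid libraries and blue in WT vehicle 1, 3 and 4 and in G3 folic acid 3.

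The members' levels were uneven between libraries of a group. WT folic acid 1 was the highest of the 3 WT folic acid libraries for 30 of 38 members, a place it held for 41.0% of all tested genes. G3 folic acid 3 was the lowest of its 4 libraries for 31 of 38 members, against 27.4% of all tested genes, and the highest for 0. The median deviation of the members from their mean over all libraries was 0.45, 0.04 and 0.04 (log2) in WT folic acid 1, 2 and 3, and 0.37, 0.44, -0.17 and 0.46 in G3 folic acid 1 to 4. In the vehicle libraries it lay between -0.45 and -0.03 in WT and between -0.26 and 0.08 in G3. All 3 WT folic acid libraries thus lay above the WT vehicle range, WT folic acid 2 and 3 by little and still within the G3 vehicle range. G3 folic acid 3 lay within the G3 vehicle range, and the other G3 folic acid libraries above it.

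Macrophage RNA and tubular injury RNA were high in the same libraries. The summed level of 11 macrophage markers, among them Csf1r, C1qa and Lyz2, was 4276 in WT folic acid 1, against 1423 and 1397 in that group's libraries 2 and 3. In G3 folic acid it was 3737, 3125, 1441 and 3685 in libraries 1 to 4, and in the 8 vehicle libraries it was 862 to 1546. Of these markers, Fcgr1 was at 0 in 4 libraries and Adgre1 in 1. The sum of 7 tubular injury genes, among them Havcr1, Lcn2 and Spp1, was 6765, 3911 and 3946 in WT folic acid, 8743, 7330, 4192 and 8896 in G3 folic acid and 2323 to 3878 after vehicle. Clu was its largest part, with 3627 in WT folic acid 1 and 5274 in G3 folic acid 1, where Havcr1 was 44.2 and 80.8. Krt18, also of the 7, did not rise. It was 39.0 to 167 in WT vehicle, 57.6 to 89.6 in WT folic acid, 45.9 to 189 in G3 vehicle and 42.0 to 93.9 in G3 folic acid. Plasma cell and B cell genes summed to 804 in WT folic acid 1 and to 23.98 to 202 in the other libraries. Fibroblast and pericyte genes, 6 in all, summed to 8143 in WT folic acid 1, to 1224 and 1399 in WT folic acid 2 and 3, to 2194 to 4355 in G3 folic acid and to 716 to 1596 after vehicle. The 9 measured T and NK cell genes summed to 61.4 to 153 in WT folic acid and 36.2 to 48.3 in WT vehicle, with 1 of 4 tested called higher, and to 43.96 to 139 in G3 folic acid and 28.1 to 69.4 in G3 vehicle. Endothelial genes summed to 2193 to 2397 in WT folic acid, 1791 to 1909 in G3 folic acid and 1877 to 2401 after vehicle. After folic acid in WT 2 of 7 endothelial genes and 0 of 11 macrophage markers were called higher. Over all tested genes 2.17 percent were called higher in that comparison. In G3 2 of the 11 macrophage markers were called higher, against 0.273 percent of all genes called in either direction. Neutrophil genes, 5 in all, had lower sums after folic acid. They summed to 186 to 246 in WT vehicle and 79.4 to 168 in WT folic acid. The G3 sums were 120 to 180 after vehicle and 55.4 to 105 after folic acid. Siglech marks plasmacytoid dendritic cells, the main makers of type I interferon. It was 1.90 to 7.99 in WT vehicle and 13.4 to 18.1 in WT folic acid. In G3 it was 4.33 to 15.3 after vehicle and 4.995 to 13.6 after folic acid. The 3 tested genes of the list for that cell type did not move together. Their folic acid differences were -0.50 to 1.29 in WT and -1.29 to 0.23 in G3. The part of these cells in the members' levels was not tested, and in whole tissue fewer cells of a type and less RNA per cell cannot be told apart.

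**Figure D3:**
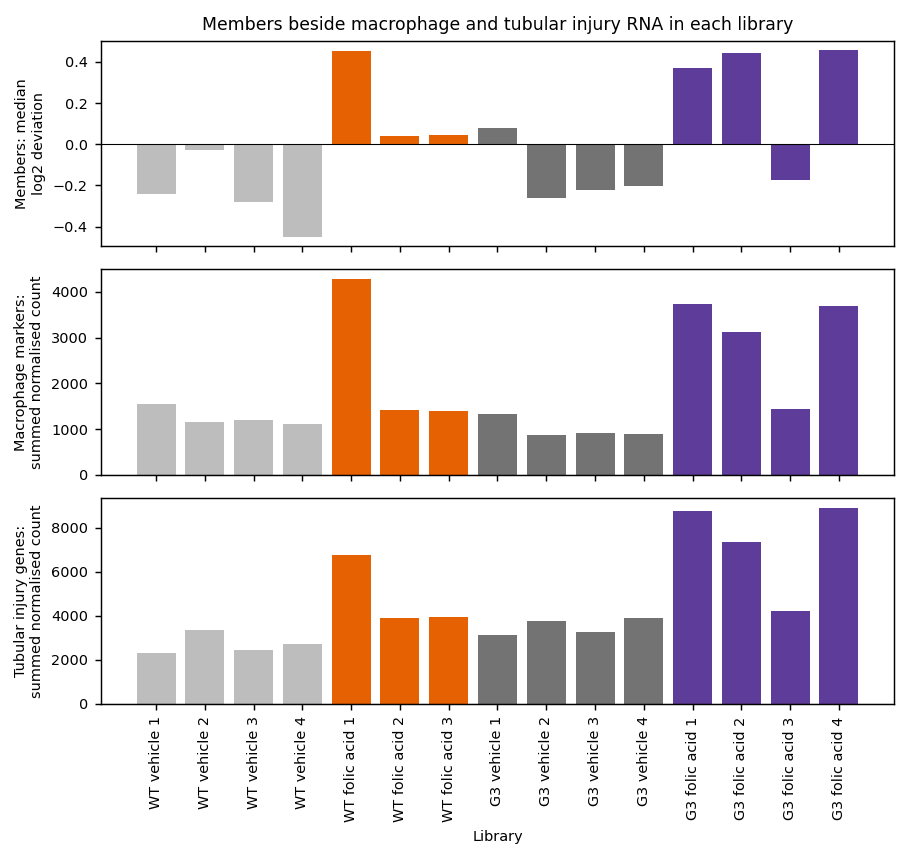
Median log2 deviation of the 38 tested members from their mean over the 15 libraries (top), summed normalised count of 11 macrophage markers (middle) and of 7 tubular injury genes (bottom), by library. WT folic acid 1 and G3 folic acid 1, 2 and 4 stand highest in all 3 panels, with macrophage sums of 3125 to 4276 against 862 to 1546 in the other 11 libraries.

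Upstream of the members, 21 interferon ligand genes were looked for by symbol or synonym, and 0 were found in the count table. Whether they had no reads or were left out of it cannot be told, so the ligands were not analysed. A list of 97 other genes of the pathway was set beside the members, of which 73 were in the table and 66 were tested. In WT 7 of 66 rose and 2 fell after folic acid, against 5.06 percent of all genes called and 2.17 percent called higher, and the median was 0.40 against 0.01 over all genes. In G3 0 of 66 were called, against 0.273 percent of all genes, and the median was 0.36 against -0.01. Of 5 tested receptor subunits 1 was called in WT, Il10rb, a chain shared by the interferon lambda and interleukin 10 receptors, which rose by 0.88 (SE 0.22, limma adjusted p = 0.0339). Its mean was 57.3 (SD 7.93, n = 4) after vehicle and 109 (SD 34.4, n = 3) after folic acid. The call ended without WT vehicle 1, 3 or 4 or WT folic acid 1 or 3, with an adjusted p of up to 0.159. The type I receptor gene Ifnar1 averaged 101 in WT vehicle and 134 in WT folic acid, and Ifnar2 215 and 294. In G3 the gamma receptor gene Ifngr2 was 32.5, 22.5, 34.6 and 38.1 after vehicle and 69.0, 62.01, 71.9 and 49.2 after folic acid, without overlap, a difference of 0.97 (SE 0.22, 1.96-fold, limma adjusted p = 0.0728). Its partner Ifngr1 was 123 to 140.3 and 153 to 214 in G3, and Ifnar2 215 to 265 and 273 to 315, also without overlap and with limma adjusted p of 0.357 and 0.398. Stat3 was higher in G3 than in WT after folic acid by 0.65 (SE 0.16, limma adjusted p = 0.0475), at 781 (SD 105, n = 4) against 495 (SD 52.5, n = 3). That call ended with 11 of the 15 libraries left out in turn, all but WT vehicle 2, WT folic acid 1 and G3 vehicle 1 and 2. The limma adjusted p was then up to 0.165, and it was 0.999 with the title series as a term.

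Of the 4 transcription factors among the members, 0 were called in any comparison by limma, where 0.273 to 5.06 percent of all genes were. Irf9, the DNA-binding part of the factor complex activated by type I interferon, was 158, 202, 174 and 159.8 in WT vehicle and 263, 265 and 243 in WT folic acid, groups that did not overlap. In G3 it was 148 to 239 after vehicle and 169.8 to 258 after folic acid, which overlapped. DESeq2 called Irf9 in WT, limma and edgeR did not.
Irf1, induced mainly by interferon gamma, was 58.8, 60.7, 66.2 and 81.9 in WT vehicle, 115, 72.9 and 85.8 after folic acid in WT, 92.5, 94.8, 104 and 91.2 in G3 vehicle and 197, 192, 97.9 and 137 in G3 folic acid. All 4 G3 vehicle libraries lay above all 4 WT vehicle libraries, and after folic acid the genotypes overlapped through G3 folic acid 3 and WT folic acid 1. The difference of G3 from WT after folic acid was 0.74 (SE 0.22, 1.67-fold, limma adjusted p = 0.0838), and it was called without WT folic acid 1 (adjusted p = 0.0417) or G3 folic acid 3 (adjusted p = 0.0398) and by DESeq2 (adjusted p = 0.0319). Irf7, which amplifies the type I response, averaged 57.3 (SD 12.4), 64.1 (SD 8.51), 56.9 (SD 19.9) and 85.6 (SD 22.9) after vehicle and folic acid in WT and after vehicle and folic acid in G3. Stat2 was 51.9 to 73.9 in WT vehicle, 57.6 to 79.4 in WT folic acid, 51.8 to 95.2 in G3 vehicle and 89.9 to 109 in G3 folic acid, the last above every WT library.

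Among the sensors, STING was the member with the largest difference after folic acid in G3. Tmem173 encodes STING, the membrane adaptor that relays the cGAS signal (chromosome 18, start 35733679, end 35740554, minus strand, GRCm38). Its level was 10.2, 10.4, 12.5 and 13.0 in WT vehicle, 78.3, 12.5 and 17.2 after folic acid in WT, 24.4, 10.7, 24.9 and 16.0 in G3 vehicle and 61.7, 52.6, 37.0 and 59.9 in G3 folic acid. All 4 G3 folic acid libraries were above all G3 vehicle libraries, whereas in WT only WT folic acid 1 stood far above the vehicle range. The WT difference was 1.11 (SE 0.46, limma adjusted p = 0.155), and DESeq2 called it. The G3 difference was 1.47 (SE 0.42, 2.77-fold on the log2(normalised count + 1) scale) with a limma adjusted p of 0.118. It was called by DESeq2 too (adjusted p = 0.0481), and by limma with only the G3 libraries in the fit (adjusted p = 0.0281) and without WT folic acid 1 (adjusted p = 0.00929). Between genotypes after folic acid the difference was 0.97 (SE 0.46, limma adjusted p = 0.239), and 1.76 without WT folic acid 1 (adjusted p = 0.0141).

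Cgas, which makes the second messenger that opens STING signalling, was 8.14, 7.82, 5.41 and 8.02 in G3 vehicle and 24.5, 23.5, 8.99 and 21.5 in G3 folic acid, without overlap. In WT it was 5.65 to 16.1 after vehicle and 28.4, 18.2 and 5.72 after folic acid, with overlap. Zbp1, a sensor of Z-form nucleic acid, was 5.01 to 7.82 in G3 vehicle and 19.1, 18.8, 7.99 and 10.7 in G3 folic acid. These genes rest on few reads per library, and in G3 folic acid 3 both were just above the vehicle range. The RNA sensor Ddx58 was 179 to 265 in WT vehicle and 335, 319.6 and 266 in WT folic acid, and Ifih1 was 70.04 to 114 and 99.1 to 130.5. Dhx58, which encodes LGP2, the helicase that tunes both, had 1 to 13 reads per library and was not tested.

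A list of further sensors, Toll-like receptors, adaptors, kinases and transcription factors of these routes had 13 genes tested. Of these 1 fell in WT after folic acid, against 5.06 percent of all genes called in either direction. After folic acid 1 was higher in G3 than in WT, against 2.3 percent of all genes called in either direction. Irf3, the factor that MAVS and STING activate, was 458, 368, 372 and 334 in WT vehicle and 221, 255 and 258 in WT folic acid, a fall of 0.64 on the log2 scale (SE 0.13, 0.643-fold, limma adjusted p = 0.0157). Its G3 levels were 246 to 319 after vehicle and 242 to 267 after folic acid, and that folic acid difference was -0.14 (SE 0.12, limma adjusted p = 0.662). The WT call ended without WT vehicle 1 or WT folic acid 1 (adjusted p up to 0.0665). Mavs, the mitochondrial adaptor of RIG-I and MDA5, was 80.5, 97.9 and 111 in WT folic acid and 201, 248, 219.8 and 204 in G3 folic acid. The G3 level was higher by 1.18 (SE 0.22, 2.26-fold, limma adjusted p = 0.0159), and the call ended without WT folic acid 2 or G3 folic acid 1 (adjusted p up to 0.0768). After vehicle Mavs was 85.3 to 161 in WT and 124 to 224 in G3, with overlap. With the Y share as a term the difference after folic acid was 1.02 (adjusted p = 0.208). With the title series as a term the limma adjusted p of this difference was 0.999.

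Genes that remove self nucleic acid were also looked at, 8 of them tested. Rnaseh2b, a subunit of the ribonuclease that takes ribonucleotides out of DNA, was 105 to 153 in WT vehicle, 69.2 to 82.9 in WT folic acid, 61.7 to 81.2 in G3 vehicle and 69.5 to 106 in G3 folic acid. WT vehicle stood above both other groups it was compared with: the differences were -0.68 for folic acid in WT (SE 0.18, limma adjusted p = 0.0405) and -0.78 for G3 against WT after vehicle (SE 0.17, limma adjusted p = 0.0192). The folic acid effects differed between genotypes by 1.04 (SE 0.24, limma adjusted p = 0.0252). All 3 rest on the same 4 WT vehicle libraries. Leaving out 1 library at a time ended these calls in 8, 4 and 7 of 15 fits, WT vehicle 3 and WT vehicle 4 in each, with adjusted p of up to 0.144, 0.0818 and 0.0614. Fitted with the Y share, the same 3 differences were -0.26, -0.35 and 0.37, with adjusted p of 0.981, 0.830 and 0.9997.

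The OAS family makes the 2-5A messenger that activates RNase L, and in these kidneys 4 of its 5 listed members had too few reads to test. Oas1a, Oas2, Oas3 and Oasl1 had between 0 and 20 reads per library. Their group means in WT vehicle and WT folic acid were 1.999 and 2.85 for Oas1a, 4.94 and 7.57 for Oas2, 4.51 and 11.9 for Oas3, and 2.70 and 9.34 for Oasl1. Oasl2 was tested, and was 49.8, 72.0, 49.9 and 51.9 in WT vehicle, 137, 54.7 and 60.05 in WT folic acid, 42.2 to 81.2 in G3 vehicle and 65.9 to 107 in G3 folic acid. WT folic acid 1 alone was above the WT vehicle range.

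Of 7 tested antiviral effectors, 2 rose after folic acid in WT, Mx2 and Ifit3b, and 0 were called in any other comparison. Over all genes 2.17 percent were called higher after folic acid in WT. The other comparisons called 0.273 to 3.82 percent of all genes. Ifit3b encodes a member of the IFIT family, which binds foreign RNA and blocks its translation (chromosome 19, start 34607970, end 34613401, plus strand, GRCm38). Its level was 13.6, 10.4, 18.2 and 8.99 in WT vehicle and 36.3, 25.0 and 29.6 in WT folic acid, without overlap. It rose by 1.21 (SE 0.33, 2.31-fold, limma adjusted p = 0.0444). In G3 it was 12.7 to 23.1 after vehicle and 15.0 to 34.9 after folic acid. Mx2, a dynamin-like GTPase that blocks viruses (chromosome 16, start 97535308, end 97560900, plus strand), was 4.52, 10.4, 7.68 and 4.995 in WT vehicle and 26.1, 17.3 and 14.3 in WT folic acid. It rose by 1.38 (SE 0.36, 2.59-fold, limma adjusted p = 0.0393). G3 vehicle libraries held 10.2 to 18.04 and G3 folic acid libraries 11.3 to 25.9, so the levels of G3 without injury overlapped those of WT after it.

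Both calls were close to the threshold. Ifit3b was no longer called in 10 of the 15 fits that left out 1 library, namely every WT library, G3 vehicle 3 and 4 and G3 folic acid 1, and Mx2 in 8, namely the WT libraries other than WT vehicle 2, G3 vehicle 3 and G3 folic acid 1. The adjusted p reached 0.158 and 0.161, both without WT folic acid 1, where the differences were 1.07 and 1.14. With the Y share as a term they were 1.08 and 1.10 (adjusted p = 0.981 for each).

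Ifit3b and its neighbour Ifit3 are near copies of each other. Reads shared by them may have been dropped or assigned to either, which was not tested. Ifit3 had more reads, and its levels overlapped between the WT groups: 138, 77.7, 172 and 71.9 after vehicle and 167, 115 and 124 after folic acid. The upstream stretches of both genes are shown because they carry the same response elements while only Ifit3b was called. They were taken from RefSeq (GRCm38.p6), read on the strand of the gene, with capitals marking ISRE letters, GAAANNGAAA on either strand. The Ifit3 stretch is chr19:34583343-34583446 and the Ifit3b stretch chr19:34607739-34607842, both on the plus strand. All 104 bases are identical, 0 differing.
Ifit3: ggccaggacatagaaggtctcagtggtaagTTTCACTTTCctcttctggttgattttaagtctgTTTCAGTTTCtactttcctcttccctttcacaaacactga
Ifit3b: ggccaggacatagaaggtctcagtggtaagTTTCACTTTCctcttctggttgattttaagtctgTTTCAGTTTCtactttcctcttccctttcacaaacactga

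Among the other effectors, Ifit1 and Ifit2 followed a single library in WT. Ifit1 was 19.9 to 49.9 in WT vehicle and 76.01, 38.4 and 46.7 in WT folic acid, and Ifit2 was 35.0 to 61.6 and 113, 51.8 and 35.3, with only WT folic acid 1 above the vehicle range in each. Rsad2, encoding viperin, which makes a chain-terminating nucleotide, had the highest normalised counts of this group, with means of 399 (SD 61.6) in WT vehicle, 470.3 (SD 66.8) in WT folic acid, 381 (SD 60.6) in G3 vehicle and 429 (SD 38.8) in G3 folic acid. Bst2, encoding tetherin, which holds budding viruses at the cell surface, was 16.0 to 21.1 in WT vehicle and 21.05 to 35.2 in G3 vehicle. Mx1 had 2 to 11 reads per library and was not tested.

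The ISG15 system and its regulators held 0 called members of 6 tested, in comparisons that called 0.273 to 5.06 percent of all genes. Isg15 is a small ubiquitin-like protein that is joined to other proteins, and its gene lies on chromosome 4 (start 156199424, end 156200818, minus strand). Its levels were 15.8, 12.3, 18.2 and 23.0 in WT vehicle, 48.8, 29.7 and 28.6 after folic acid in WT, 23.4, 20.5, 30.3 and 22.05 in G3 vehicle and 58.1, 66.7, 19.98 and 56.4 in G3 folic acid. The WT groups did not overlap, and in G3 the groups overlapped through G3 folic acid 3 alone. The G3 difference was 0.92 (SE 0.33, 1.89-fold, limma adjusted p = 0.204), and 1.30 without G3 folic acid 3 (adjusted p = 0.0373). Its promoter is shown because it is the densest in response elements of those printed, with 3 overlapping ISRE matches in capitals, from -78 to -57 relative to the RefSeq start (chr4:156200845-156200926, minus strand).
Isg15: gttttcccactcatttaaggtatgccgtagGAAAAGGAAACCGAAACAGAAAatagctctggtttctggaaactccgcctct

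Usp18, which removes ISG15 from proteins, was 7.68 to 15.8 in WT vehicle and 10.49 to 17.02 in WT folic acid, and 9.74 to 15.2 and 12.0 to 25.1 in G3. Parp9 and Dtx3l, partners in ADP-ribosylation and ubiquitination, lie next to each other on chromosome 16 with overlapping ends. Dtx3l was 101 to 129.9 in G3 vehicle and 144 to 166 in G3 folic acid, without overlap, whereas in WT it was 105 to 146 and 114 to 149.8. Trim25, a ubiquitin ligase that acts on RIG-I, stayed between 268 and 359 in all libraries.

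The GTPases held the largest difference among the members, that of Gbp3 in WT, and Gbp7 was called as well. GBPs coat the membranes of intracellular vacuoles and bacteria. Gbp3 (chromosome 3, start 142560026, end 142573209, plus strand, GRCm38) was 24.9, 97.6, 14.4 and 16.0 in WT vehicle and 255, 148 and 156 in WT folic acid, without overlap. It rose 6.36-fold on the log2(normalised count + 1) scale (log2 2.67, SE 0.52, limma adjusted p = 0.0132). The WT means were 38.2 (SD 39.9, n = 4) after vehicle and 186 (SD 59.7, n = 3) after folic acid. In G3 it was 83.4, 99.7, 84.4 and 67.1 after vehicle and 46.3, 116, 27.0 and 59.9 after folic acid, with overlap and with the means in the other order. The folic acid effect in G3 minus that in WT was -3.27 (SE 0.70, limma adjusted p = 0.0163). After folic acid every G3 library was below every WT library (difference -1.71, SE 0.52, limma adjusted p = 0.0853).

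Gbp7, the neighbouring gene (start 142530342, end 142550149, plus strand), was 159.5, 245, 116 and 125 in WT vehicle and 347, 330.2 and 341 in WT folic acid. It rose by 1.13 (SE 0.25, 2.19-fold, limma adjusted p = 0.0192). Its mean was 161 (SD 58.6, n = 4) after vehicle and 339.5 (SD 8.62, n = 3) after folic acid, and the WT folic acid libraries were closely alike. In G3 it was 258, 177, 160.1 and 213.5 after vehicle and 181, 248, 128 and 215 after folic acid, so that after folic acid all G3 libraries were below all WT libraries (difference -0.85, SE 0.25, limma adjusted p = 0.0735). The Gbp3 call in WT ended without WT vehicle 4 (adjusted p = 0.0517) or WT folic acid 1 (adjusted p = 0.0567). The Gbp7 call ended without WT vehicle 1, 3 or 4 or WT folic acid 1 or 3, with an adjusted p of up to 0.0733.

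**Figure D4:**
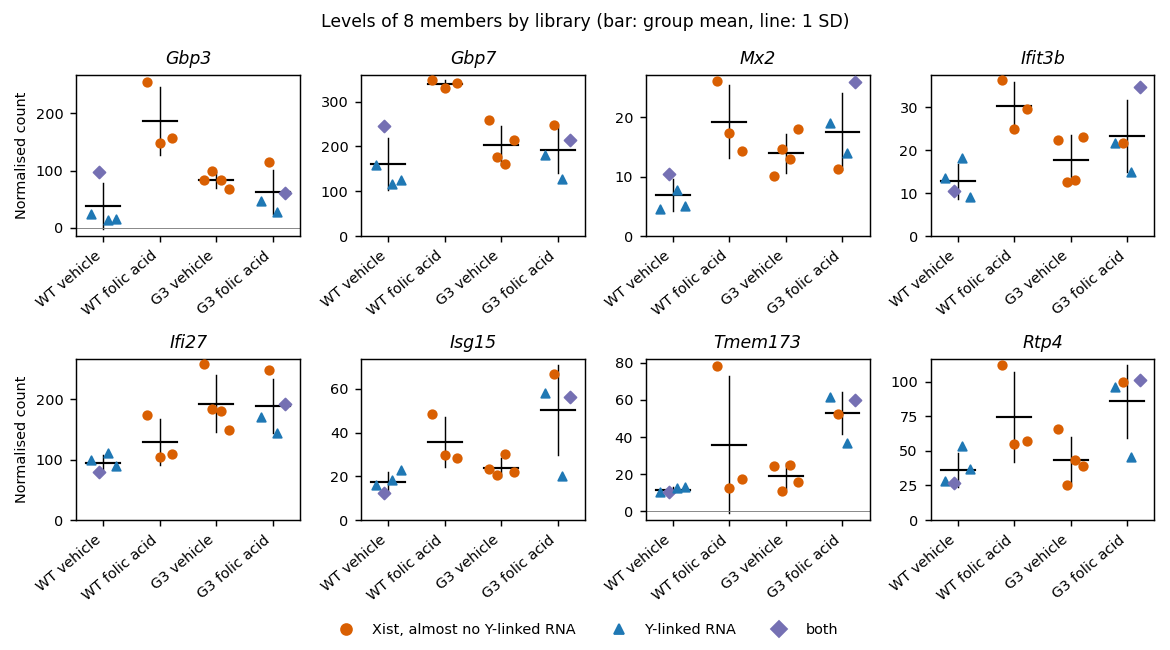
Normalised counts of 8 members in each library by group, with the group mean and 1 SD; orange circles mark libraries with almost no Y-linked RNA and with Xist, blue triangles those with Y-linked RNA and violet diamonds those with both. Gbp3 is 14.4 to 46.3 in the blue libraries and 67.1 to 255 in the orange ones, while Isg15, Tmem173 and Rtp4 show no such division.

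Gbp3 also followed the sex of the RNA. It was 14.4 to 46.3 (median 24.9) in the 5 libraries with Y-linked RNA, 67.1 to 255 (median 108) in the 8 with almost no Y-linked RNA and with Xist, and 97.6 and 59.9 in the 2 with both. It was the only one of the 38 tested members whose levels did not overlap between the 5 and the 8 libraries, against 1.45% of all genes that were lower and 2.78% that were higher with Y-linked RNA in that way. With the groups in the fit, a step from no Y-linked RNA to the highest library's level went with a Gbp3 difference of -2.71 (SE 0.44, limma adjusted p = 0.00310, 6.52-fold lower), a test added after the values were seen, in which 1.3 percent of all genes, 0.567 percent lower, and 1 of 38 members were called. Without WT vehicle 2 it was -1.997 (adjusted p = 0.130), and without both libraries of mixed RNA -2.10 (adjusted p = 0.149). Gbp7 was 116 to 181 and 160.1 to 347 in the same 2 sets of libraries, with a difference of -1.09 (SE 0.27, limma adjusted p = 0.0547; edgeR adjusted p = 0.0482).

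With the Y share as a term, the folic acid difference in WT was 0.52 for Gbp3 and 0.27 for Gbp7 (limma adjusted p = 0.981 for each), and the difference of the folic acid effects for Gbp3 was 0.15 (adjusted p = 0.9997), the other sign. All 3 WT folic acid libraries are of the Xist kind and 3 of 4 WT vehicle libraries of the Y-linked kind, so folic acid and the sex of the RNA cannot be told apart for these genes in WT. WT vehicle 2, the one vehicle library with both kinds of RNA, had 97.6 for Gbp3, against 148 to 255 in WT folic acid.

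The promoters of both genes are shown because both genes rose in WT and both carry response elements close to the start. Gbp3 holds 2 overlapping ISRE matches from -45 to -30 (chr3:142559969-142560043, plus strand). Gbp7 holds GAS letters, TTCNNNGAA, from -106 to -98 and from -87 to -79, and an ISRE match from -53 to -44 (chr3:142530200-142530322, plus strand). Capitals mark these matches.
Gbp3: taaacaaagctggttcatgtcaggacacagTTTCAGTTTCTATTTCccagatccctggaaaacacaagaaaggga
Gbp7: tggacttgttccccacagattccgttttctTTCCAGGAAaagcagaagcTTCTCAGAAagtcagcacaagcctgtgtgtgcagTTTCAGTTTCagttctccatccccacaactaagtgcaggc

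Of the 10 tested GTPases the other 8 were called in 0 comparisons, while 0.273 to 5.06 percent of all genes were called in each. Gbp2 was 25.0 to 55.9 in WT vehicle and 90.8, 50.9 and 57.2 in WT folic acid, and Gbp5 was 13.0 to 25.9 and 35.2, 16.3 and 21.0. Gbp9, on chromosome 5, was 6.99 to 20.9 in WT vehicle, 21.6 to 23.995 in WT folic acid, 12.7 to 28.5 in G3 vehicle and 25.4 to 31.3 in G3 folic acid, the last above every WT library. Ifi47, an IRG of the membrane-guarding kind, had one of the larger differences after folic acid in G3, 1.01 (SE 0.29, 2.01-fold, limma adjusted p = 0.116), with 49.8, 22.5, 17.3 and 28.1 after vehicle and 73.5, 61.07, 36.0 and 59.9 after folic acid. Irgm1, which guards host membranes, was 27.8 to 35.1 in WT vehicle and 41.9 to 48.8 in WT folic acid. Igtp and Irgm2 overlap on the same strand of chromosome 11, so their reads may not be parted. Igtp was 54.5, 107 and 109 in WT folic acid, with WT folic acid 1 the lowest, against 58.5 to 85.3 in WT vehicle. Iigp1 averaged 137 (SD 23.9), 136 (SD 23.7), 108 (SD 16.0) and 143 (SD 45.5) after vehicle and folic acid in WT and after vehicle and folic acid in G3.

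Among the remaining induced genes, Ifi27 was higher in G3 than in WT without injury. Ifi27 encodes a small membrane protein of mitochondria and the nuclear envelope (chromosome 12, start 103434211, end 103440239, plus strand). It was 99.5, 79.6, 110.3 and 89.9 in WT vehicle and 258, 184, 181 and 148 in G3 vehicle, groups that did not overlap. The G3 mean was 193 (SD 46.5, n = 4) and the WT mean 94.8 (SD 13.1, n = 4), a difference of 0.996 (SE 0.20, 1.99-fold, limma adjusted p = 0.0158). After folic acid it was 174, 105 and 109.6 in WT and 171, 249, 144 and 192 in G3, with overlap. The call ended without WT vehicle 1 (adjusted p = 0.0542) or WT vehicle 4 (adjusted p = 0.0634), and with the labelled sex as a term (1.02, adjusted p = 0.11). With the Y share it was 0.79 (adjusted p = 0.803) and with the series of title numbers 0.72 (adjusted p = 0.822). The macrophage marker sum was 1118 to 1546 in WT vehicle and 862 to 1328 in G3 vehicle.

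Rtp4, a chaperone of cell surface receptors, was 28.3, 26.5, 53.7 and 37.0 in WT vehicle, 112, 54.7 and 57.2 after folic acid in WT, 66.1, 25.4, 43.3 and 39.1 in G3 vehicle and 96.2, 99.6, 45.95 and 101 in G3 folic acid. The G3 difference was 0.97 (SE 0.33, 1.96-fold, limma adjusted p = 0.179), and G3 folic acid 3 was the one folic acid library within the vehicle range. Ifi35 was 38.4 to 57.7 in WT vehicle and 66.2 to 78.2 in WT folic acid, and 28.1 to 47.1 and 47.9 to 84.1 in G3. Xaf1, which counters an inhibitor of cell death, was 31.7 to 45.5 in WT vehicle and 42.2 to 66.9 in WT folic acid. Ifi44 averaged 232 (SD 63.8), 249.6 (SD 42.3), 247 (SD 35.3) and 239.7 (SD 30.3) after vehicle and folic acid in WT and after vehicle and folic acid in G3.

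Of the further induced genes outside the members, 6 of 34 tested rose after folic acid in WT, against 2.17 percent of all genes called higher. In G3 0 of 34 were called, against 0.273 percent of all genes. Eif2ak2, encoding PKR, the kinase that stops translation on sensing double-stranded RNA, was 65.4 to 75.8 in WT vehicle and 91.9, 110.4 and 113 in WT folic acid (difference 0.61, SE 0.14, limma adjusted p = 0.0260). Ifitm3, which blocks virus entry, was 559 to 861 in WT vehicle and 2021, 1063 and 1049 in WT folic acid (0.83, SE 0.23, limma adjusted p = 0.0495). Lgals9, Epsti1, Slfn5 and Trim34a rose by 1.13, 1.27, 0.76 and 1.21 (limma adjusted p = 0.0261, 0.0355, 0.0277 and 0.0446). Each of these 6 calls ended when single libraries were left out, in 4 of 15 fits at the fewest for Epsti1, Slfn5 and Lgals9 and in 12 at the most for Ifitm3. WT vehicle 1 ended each of the 6 and WT folic acid 1 ended 5, all but Eif2ak2, with adjusted p of up to 0.232. Of the 66 pathway genes 0 were called in WT with the Y share as a term. In that fit 1 of the 14651 tested genes was called, so the count says nothing about the pathway genes in particular.

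The promoters of the members were rich in the letters of both response elements. In the RefSeq windows from 250 bases before to 50 bases after a start site, 31 of the 44 members had an entry. ISRE letters, on either strand, were found in 18 of 31 (58.1%), against 3.99% of 27025 genes with an entry. GAS letters, which read the same on both strands, were found in 9 of 31 (29.0%), against 9.55% of genes, and both in 6 (19.4%), against 0.614%. A match describes these letters only, and the list was chosen for response to interferon. Of the members called in any comparison, Gbp3, Gbp7 and Ifit3b had ISRE matches; Mx2 and Ifi27 had no entry.

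**Figure D5:**
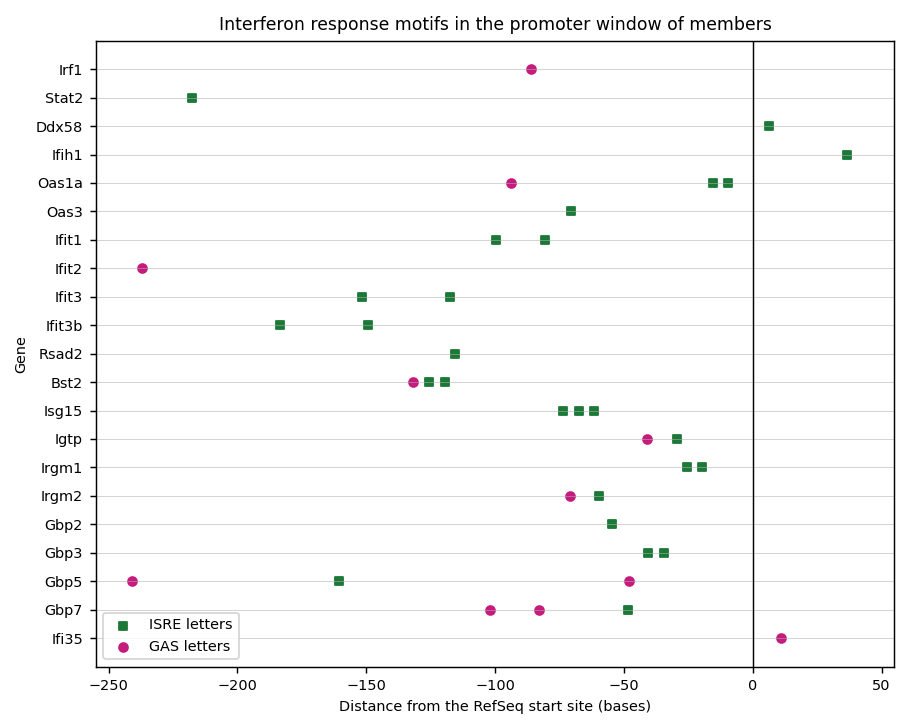
Position of ISRE letters (green squares) and GAS letters (pink circles) in the window of 250 bases before to 50 bases after the RefSeq start site (black line at 0), for the members with a match. The matches of Ifit3b and Ifit3 lie farther upstream than those of Gbp3, Gbp7 and Isg15.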

How the data were processed

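RNA of 15 whole kidneys was read with the QuantSeq 3' kit from samples of RNA quality 6.3 on average (range 4.7 to 8.0), per the labels' protocols. The submitters' processing notes name Bowtie 1.0.0, FastQC 0.11.7, HTSeq 0.6.1, SAMtools 0.1.19, TopHat2 2.0.10, DESeq2 and the build GRCm38. Annotation release, strand setting and gene filters were not given in the sources used here. Values were deposited as a signal: counts per gene over a size factor of the library, as the file's name and the values show. Its values are whole multiples of 0.895 to 1.13, so whole reads were recovered (100 percent of values within 0.001).

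Genes at 10 or more in at least 3 libraries (14651 of 19602) were tested on log2(value + 1) with limma 3.58.1 in R 4.3.3 (mean-variance trend, group terms only, all 15 libraries), with Benjamini-Hochberg adjustment over all of them. A sex term was left out because Xist and Y-linked RNA go against the label in 10 libraries. P-values cover only the spread between these libraries, labelled as separate samples. No pair of libraries had the same value in more than 2.40% of all genes, shared zeros included. Alternatives were the labelled sex, the Y share (Ddx3y, Kdm5d, Eif2s3y and Uty) or the title number series as terms, only the groups compared, TMM scaling, pseudocounts of 0.5 and 5, other filters, edgeR 4.0.16 and DESeq2 1.42.0 on the recovered reads, leaving out each library, and leaving out the 2 of mixed sex RNA. The limma procedure was tested on simulated data. Fold changes understate low genes. In each comparison, tests are given for called members, or else for the 4 largest differences with a mean of at least 20. The members, lists and Y share test were chosen with earlier results of these data known. Cgas was matched through a RefSeq synonym of Mb21d1; coordinates are GENCODE M21 on GRCm38.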

Additional observations from a re-analysis of the deposited data

Results flagged for a closer look

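In groups of 4 libraries, a value was listed when its gap to the nearest library exceeded Dixon's 95% critical share of the group's range, which chance gives in about 1 of 20 groups. Of 114 groups of tested members 8 passed, against 5.7 expected by chance. In G3 vehicle 1, Ddx58 was 308 (the other 3 libraries 198 to 211), Rsad2 was 472 (343 to 357) and Gbp9 was 28.5 (12.7 to 15.0). Cgas was 5.41 in G3 vehicle 3, against 7.82 to 8.14. In WT vehicle 2, which holds both Xist and Y-linked RNA, Oasl2 was 72.04 (49.8 to 51.9) and Gbp3 was 97.6 (14.4 to 24.9). Ifi35 was 84.1 in G3 folic acid 4, against 47.9 to 49.9, and Rtp4 was 45.95 in G3 folic acid 3, against 96.2 to 101.

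Gbp3 had folic acid effects that differed between the genotypes, by -3.27 on the log2 scale (limma adjusted p = 0.0163), and its levels also went with the Y share, whose part in that difference cannot be told apart from the groups.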

How the results depend on the processing

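No paired analysis was made, because each library is labelled as a separate sample and the labels give no pairing. The limits are 3 or 4 libraries a group, a Y share that follows the groups and a title series that parts the genotypes after folic acid. Further limits are 1 folic acid library in each genotype that stands apart, and few reads for the OAS genes, Dhx58 and Mx1.

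The comparisons are given in the order folic acid in WT, folic acid in G3, G3 against WT after vehicle, the same after folic acid, and the difference of the folic acid effects, where the reported counts of called genes were 741, 40, 425, 337 and 560 and of called members 4, 0, 1, 0 and 1. With the labelled sex, 370, 12, 17, 268 and 103 genes were called and 1, 0, 0, 0 and 0 members. With the Y share, 1, 9, 1, 17 and 2 genes and 0 members in each were called, and the median of the members was 0.16 for folic acid in WT, -0.22 for G3 against WT after vehicle and 0.32 for the difference of effects. Gbp3 then changed sign in the difference of effects, to 0.15. With the title series, 2, 0, 1, 0 and 3 genes and 0 members were called. With only the groups compared, which gives no separate value for the difference of effects, 441, 203, 589 and 78 genes were called, and 2 members for folic acid in WT and 1 in G3. DESeq2 called 1257, 387, 787, 778 and 812 genes and 6, 1, 1, 2 and 2 members, and edgeR 756, 50, 409, 369 and 586 genes. Without the 2 libraries of mixed sex RNA 1254, 11, 614, 578 and 966 genes were called, and 2 members in each of the last 3 comparisons. A pseudocount of 5 and a mean of at least 20 each called 2 members, Gbp3 and Gbp7, in the difference of effects. The cause of these changes was not tested.

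Leaving out 1 library at a time gave 99 to 1306, 3 to 360, 81 to 685, 27 to 625 and 253 to 926 called genes, 0 to 6, 0 to 2, 0 to 2, 0 to 2 and 1 to 2 called members, and medians of the members of 0.25 to 0.53, 0.35 to 0.54, 0.05 to 0.15, -0.01 to 0.23 and -0.12 to 0.16. These fits are not part of the following count. Over the other settings, 271 of 347 alternative values stayed the same. For a named gene this meant the same direction and call, and for a median a change smaller than the spread between libraries (0.224). Counts of called genes or members were taken as the same when within 1.5-fold of the reported count.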
